A study of Mus musculus with 8 samples.

Results

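Heat shock proteins and their J-domain partners were followed in mouse neutrophils from blood (peripheral blood, PB) and from marrow (bone marrow, BM). The genes are the rows of the count table whose symbol starts with Hsp followed by a, b, d, e, h or 9, or with Dnaj, and that had at least 1 UMI (unique molecular identifier, a tag that marks one captured transcript) in at least 10 cells. Of 61 rows with such names, 54 were kept, 20 heat shock protein genes and 34 J-domain genes, among 9919 genes seen in 10 or more cells. Hspbap1 and Hspbp1, which encode binding partners, were left out by name, and Dnajb5, Dnajc16, Dnajc22, Dnajc27 and Hspb1 were seen in fewer than 10 cells.

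The cells came from male C57BL/6J mice, 7 to 12 weeks old, injected intraperitoneally with PBS or with LPS (lipopolysaccharide, a bacterial cell wall component that models sepsis) at 0.5 mg/kg. The PBS samples are labelled 0 h and the LPS samples 4 h. The study's methods have neutrophils for transfer prepared 4 h after PBS or LPS, and give no separate time for the sequenced cells. Neutrophils were enriched with an EasySep kit, kept on ice, picked singly by mouth pipette and sequenced by SCRB-seq, which counts the 3′ ends of transcripts, so that levels of different genes are compared here without a correction for length. Of 1421 cells, 711 belong to batch 7, whose 8 plates are the 8 labelled samples, 2 each of PBS-primed PB, LPS-primed PB, PBS-primed BM and LPS-primed BM neutrophils, and 710 belong to batch 6, with 8 plates that carry a group but no sample label. The labels do not say that the 2 samples of a group came from separate mice, so p-values measure only the spread between these samples, which may be technical.

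Chaperones bind unfolded or partly folded proteins. HSP70 proteins do so in cycles of ATP hydrolysis that J-domain proteins start and direct to particular clients, and HSP90 proteins act later on a set of clients that includes kinases and receptors. Separate members serve the cytosol, the endoplasmic reticulum (ER) and the mitochondrion. Some genes, such as Hspa8 and Hsp90ab1, are expressed in most cells at all times, while Hspa1a, Hspa1b, Hsph1 and Dnajb1 are classical targets of heat shock factor 1 and are induced by heat and other proteotoxic stress. The factor binds heat shock elements, repeats of a short unit in alternating orientation. Neutrophils are short-lived cells that carry much less RNA than most white blood cells.

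Plates held 83 to 95 cells and between 3240559 and 12020616 UMIs. The median UMI count per cell was 32295 to 51448 on the 4 PB plates of batch 7 and 46355 to 117374 on the 4 PB plates of batch 6. Levels are given in CPM, the UMIs of a gene per 1000000 UMIs of its plate. In such sums, fewer cells that express a gene and less RNA per cell cannot be told apart. The cell names draw on 95 well positions that the plates share. The 10 neutrophil markers checked were present on every plate and summed to 119897 to 388042 CPM. The same list summed to 119897 to 180983 CPM in PBS-primed PB neutrophils and to 280339 to 366074 CPM in LPS-primed PB neutrophils over both batches. Markers of T or NK cells and of platelets were highest in PBS-primed PB neutrophils, and those of B cells were higher there than in LPS-primed PB neutrophils within each batch. Over both batches the 4 B cell, 5 T or NK cell and 3 platelet markers summed there to 80.1 to 202, 86.3 to 503 and 259.5 to 2486 CPM, against 0.0832 to 96.3, 1.56 to 43.1 and 1.41 to 108 CPM in LPS-primed PB neutrophils and 0 to 0.933, 8.75 to 42.6 and 0 to 2.74 CPM in BM neutrophils. The 4 monocyte or macrophage markers in the table were lowest in PBS-primed PB neutrophils, at 193 to 517 CPM, against 814 to 1386 CPM in LPS-primed PB and 669 to 1135 CPM in BM neutrophils, with Ccr2 and Ms4a7 at 0 on most plates. The 5 liver genes (secreted hepatocyte products) summed to 828 to 2247 CPM on the PB plates of batch 7 and to 0.107 to 1.08 CPM on those of batch 6. The 8 immediate early genes, which respond within minutes to handling and other stimuli, summed to 9783 and 10161 CPM in PBS-primed PB neutrophils of batch 7 and to 18011 and 18959.5 CPM in those of batch 6.

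Promoter windows of 300 bases, from 250 before to 50 after the start site, were taken from RefSeq on GRCm38.p6 for 43 of the 54 genes, and those printed matched mm9, the build of the counts, exactly. The windows of 4 genes are shown, since results below turn on these genes. Capitals mark elements of 2 units, GAANNTTC or TTCNNGAA, each of which reads the same on both strands.
Hspa1a, chr17:34972107-34972406, minus strand: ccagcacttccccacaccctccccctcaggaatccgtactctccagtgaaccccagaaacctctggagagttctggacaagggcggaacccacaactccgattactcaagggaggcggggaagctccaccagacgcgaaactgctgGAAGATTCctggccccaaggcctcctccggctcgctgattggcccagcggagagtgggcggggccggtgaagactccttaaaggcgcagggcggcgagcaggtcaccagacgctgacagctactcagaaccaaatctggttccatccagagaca
Hspa1b, chr17:34959189-34959488, minus strand: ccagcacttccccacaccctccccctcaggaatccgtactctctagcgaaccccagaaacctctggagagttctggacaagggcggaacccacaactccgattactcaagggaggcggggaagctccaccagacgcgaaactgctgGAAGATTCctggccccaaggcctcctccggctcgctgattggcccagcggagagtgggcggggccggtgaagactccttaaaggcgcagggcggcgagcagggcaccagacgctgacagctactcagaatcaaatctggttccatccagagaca
Dnaja1, chr4:40722218-40722517, plus strand: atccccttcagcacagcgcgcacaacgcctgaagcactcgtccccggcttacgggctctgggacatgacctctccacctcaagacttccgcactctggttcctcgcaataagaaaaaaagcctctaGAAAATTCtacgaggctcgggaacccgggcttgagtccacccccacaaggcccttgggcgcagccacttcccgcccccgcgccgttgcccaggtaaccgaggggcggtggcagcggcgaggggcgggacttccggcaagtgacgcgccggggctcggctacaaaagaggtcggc
Hspe1, chr1:55087898-55088197, plus strand: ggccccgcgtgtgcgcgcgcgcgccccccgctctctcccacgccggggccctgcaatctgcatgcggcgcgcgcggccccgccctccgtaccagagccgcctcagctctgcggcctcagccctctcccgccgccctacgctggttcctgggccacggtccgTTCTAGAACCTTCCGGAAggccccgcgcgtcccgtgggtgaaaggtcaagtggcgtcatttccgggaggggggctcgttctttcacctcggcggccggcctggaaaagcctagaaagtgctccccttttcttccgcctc

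The Hspa1a and Hspa1b windows were identical at 296 of 300 positions, and each holds 1 element of 2 units at -104 to -97 from the start site. Dnaja1, a J-domain partner of cytosolic HSP70, holds one at -124 to -117 in the window shown, its window 1. Its windows 2 and 3, at other start sites, hold 0. In the Hspe1 window, overlapping elements run from -89 to -72 and include 2 of 3 units (GAANNTTCNNGAA or its reverse complement TTCNNGAANNTTC). Hspe1 encodes the mitochondrial HSP10, and Hspd1, its HSP60 partner, is transcribed in the opposite direction from the same stretch, so that their windows share 285 bases. Elements of 2 units were found in 11 of the 43 genes (25.6%) and in 17.0% of all 27025 genes with a window. Elements of 3 units were found in 4 of 43 genes (9.30%, Dnajb6, Hspd1, Hspe1 and Hsph1) and in 0.662% of all genes. In both counts Hspd1 and Hspe1 are entered for the same stretch of their shared bases. Window 1 of Hspd1, at another start site, holds 0. A match of letters is a description of the window and not evidence of binding.

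In batch 7 the chaperone transcripts were unevenly divided among the 54 genes. Hspa8, the constitutive cytosolic HSP70 (mm9 chr9:40609067-40613283, plus strand), came first with a mean of 238 CPM over the 8 samples, followed by Hsp90ab1, the constitutive HSP90, at 186 CPM, and Dnajc8, a nuclear J-domain protein tied to splicing, at 165 CPM. Dnajc5, the cysteine string protein of secretory vesicles, stood at 131 CPM, Hspa5, the HSP70 of the ER, at 118 CPM, and Hsp90aa1, the inducible HSP90, at 107 CPM. These 6 genes held 58.9% of the chaperone CPM, and 30 of the 54 genes were below 10 CPM. By role, the 11 cytosolic HSP90 and HSP70 genes held 36.2%, the 11 class C J-domain genes of cytosol and nucleus 25.3%, the 13 ER genes 19.5% and the 6 class A and B J-domain genes of the cytosol 12.7%. The 10 mitochondrial genes held 5.85%, and the 3 genes with Hspb symbols, classed here by name as small heat shock protein genes, 0.430%. The spread between cells differed by gene. The 2 highest cells of a plate held 12.1% to 26.7% of the Hspa8 UMIs but 34.7% to 97.2% of those of Dnajc15, on the plates with any.

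**Figure D1:**
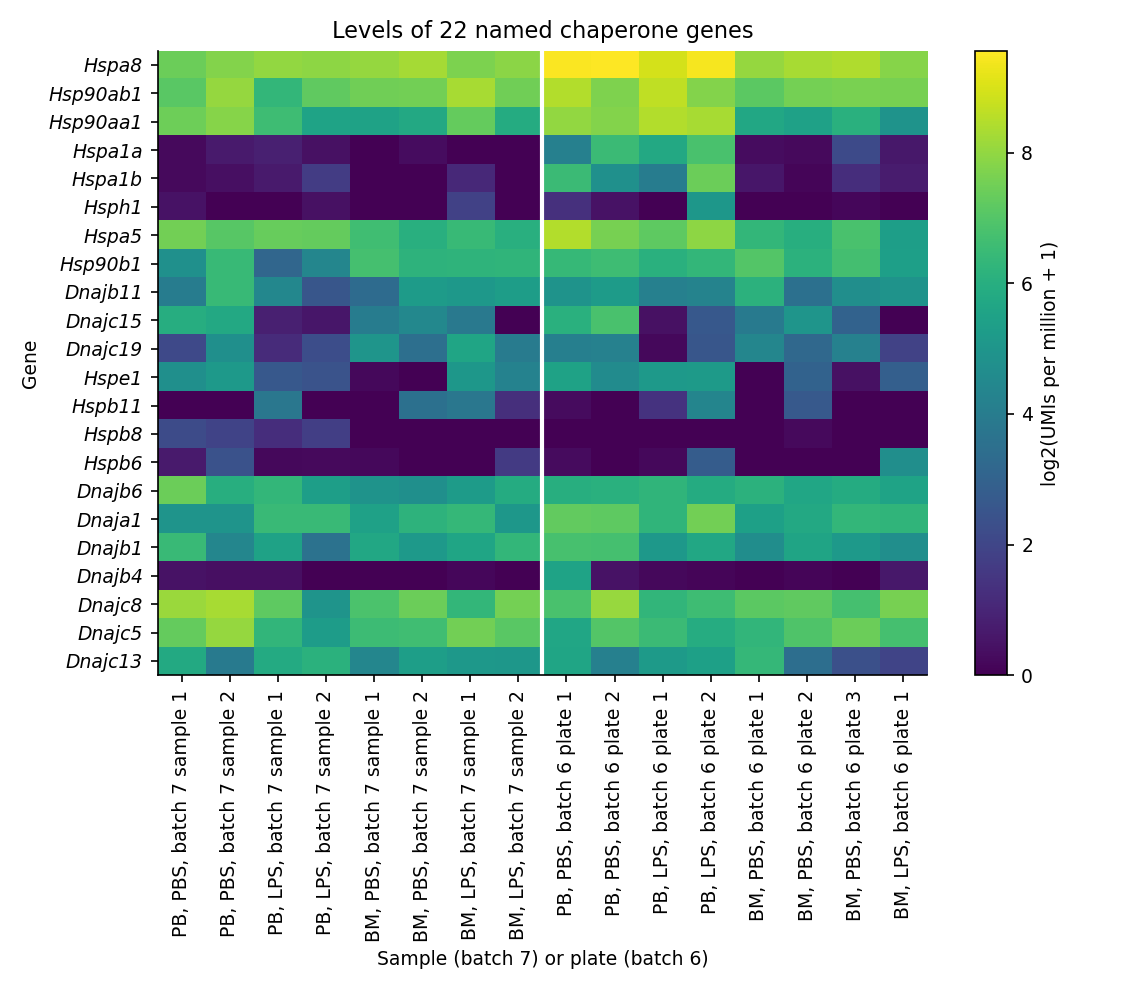
Levels of 22 named chaperone genes (rows, grouped by role) on the 16 plates (columns), as log2(CPM + 1). The rows of Hspa8 and Hsp90ab1 are high on every plate, while those of Hspa1a and Hspa1b are high on the 4 PB plates of batch 6.

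The 54 genes together took 0.207% and 0.212% of the UMIs in PBS-primed PB neutrophils of batch 7, and 0.127% and 0.108% in the LPS-primed PB samples. In BM the share was 0.138% and 0.151% in PBS-primed samples and 0.177% and 0.163% in LPS-primed samples. Thus the share was lower with LPS in PB, at 0.117% ± 0.0133 (SD, n = 2) against 0.210% ± 0.00405 (SD, n = 2), and higher with LPS in BM, at 0.170% ± 0.00998 (SD, n = 2) against 0.145% ± 0.00925 (SD, n = 2), with no overlap between the samples in either tissue. On library sizes scaled by TMM (trimmed mean of M-values, which equalises the bulk of genes between samples), added after the data were seen, the PB order turned and the BM samples overlapped. The share was then 0.153% and 0.154% with PBS and 0.170% and 0.156% with LPS in PB, and 0.144% and 0.163% with PBS and 0.162% and 0.153% with LPS in BM. On the plates of batch 6 the share was 0.349% and 0.299% in PBS-primed PB, 0.212% and 0.274% in LPS-primed PB, 0.158%, 0.147% and 0.156% in PBS-primed BM and 0.138% on the 1 plate of LPS-primed BM. On total UMIs the PB order was the same in both batches, the BM order was not, and every PB plate of batch 6 was above every plate of the same treatment in batch 7. In PBS-primed PB neutrophils the neutrophil markers took a smaller share of UMIs than in LPS-primed ones, and the B cell, T or NK cell and platelet markers a larger one (above). The immediate early genes were higher there too, at 9783 to 18959.5 CPM against 2497 to 4208 CPM with LPS over both batches. In BM of batch 7 the 5 early myeloid or dividing markers summed to 71.6 and 128 CPM with LPS against 22.4 and 27.4 CPM with PBS. In batch 6 they overlapped, at 55.9 CPM on the LPS-primed BM plate against 5.95 to 94.8 CPM with PBS. The part of these lists in the differences was not tested.

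**Figure D2:**
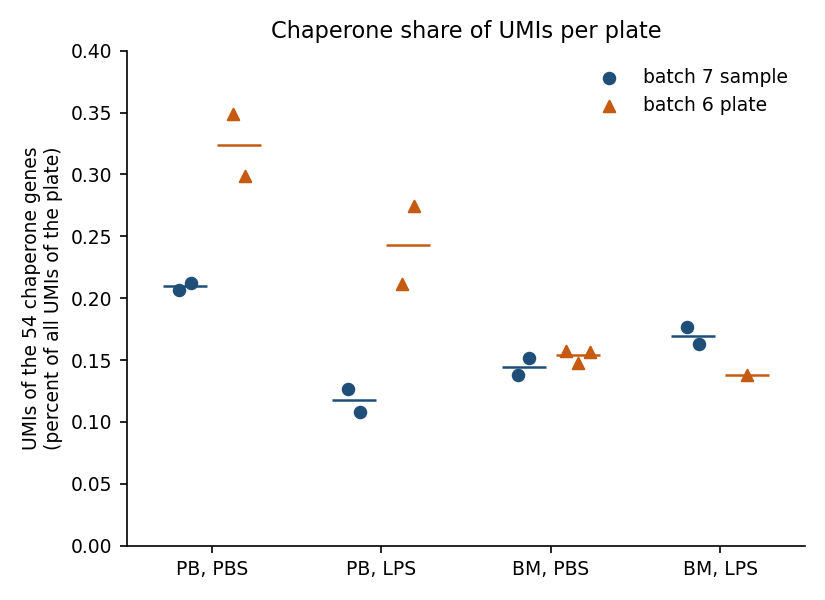
Share of all UMIs of a plate in the 54 chaperone genes (y axis, percent) by group, with a circle per batch 7 sample, a triangle per batch 6 plate and a bar for their mean. The PB plates of batch 6 lie between 0.212% and 0.349%, and the BM plates of both batches between 0.138% and 0.177%.

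The first comparison asked how LPS altered these genes in PB neutrophils. Of the 54 genes, 46 passed the filter on low counts and were tested with edgeR's quasi-likelihood test among 8478 genes (TMM scaling, Benjamini-Hochberg adjustment, calls at adjusted p under 0.05). No chaperone gene passed in either direction, whereas 3.47% of all genes were called higher and 0.472% lower. At an unadjusted p under 0.05 there were 3 chaperone genes, Hspa8, Dnaja1 and Dnajc15, as were 16.8% of all genes. DESeq2 called these 3 (12.3% of all genes), limma-voom 0 (3.64%), edgeR on the plates of both batches 1 (9.97%) and edgeR on batch 6 alone 1 (8.67%). The 46 genes had 19 positive and 27 negative estimates with a median log2 fold change of -0.29, against -0.11 over all genes tested. With scaling to library size alone these medians were -1.19 and -1.02, because TMM factors were 1.35 and 1.37 in PBS-primed and 0.748 and 0.694 in LPS-primed PB samples, so the sign of a small change in PB depends on the scaling.

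Hspa8 stood at 168 and 222 CPM in PB samples primed with PBS and at 255 and 247 CPM in those primed with LPS. The 2 pairs did not overlap, and the TMM-scaled estimate was 1.28 higher on the log2 scale (SE 0.32, adjusted p = 0.0541 by edgeR, 0.0138 to 0.540 over the alternatives). On the plates of batch 6 the order was the other way on total UMIs, with 734 and 755 CPM in PBS-primed and 489.9 and 687 CPM in LPS-primed PB neutrophils. With TMM scaling every LPS-primed PB plate lay above every PBS-primed one in both batches, so the order in batch 6 depends on the scaling. Dnaja1 stood at 29.7 and 29.6 CPM with PBS and at 87.3 and 87.8 CPM with LPS. Its estimate was 2.47 (SE 0.69, adjusted p = 0.0807 by edgeR, 0.00883 to 0.430 over the alternatives), and the groups did not overlap. On the plates of batch 6 they overlapped on total UMIs, at 153 and 144 CPM against 76.0 and 182 CPM. With TMM scaling Dnaja1 was apart and higher with LPS in both batches.

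Dnajc15, a J-domain protein of the mitochondrial inner membrane, went the other way. It stood at 61.1 and 54.3 CPM in PBS-primed and at 0.781 and 0.510 CPM in LPS-primed PB samples. Batch 6 had the same order, with 66.6 and 111 CPM against 0.333 and 5.26 CPM. The estimate in batch 7 was -5.55 (SE 2.25, adjusted p = 0.251 by edgeR, 0.0105 to 0.511 over the alternatives), and with the plates of both batches in one fit it was -4.53 (adjusted p = 0.0453 by edgeR), the only chaperone gene called there for this contrast. Dnaja3, the mitochondrial partner of HSP70, had 10.3 and 17.0 CPM with PBS and 0.312 and 0.850 CPM with LPS in batch 7, and 26.2 and 7.88 against 0.166 and 0.107 CPM in batch 6. Dnajc2, which works at the ribosome, had 47.6 and 33.0 CPM with PBS and 2.65 and 7.82 CPM with LPS in batch 7, and 61.8 and 55.2 against 0.582 and 2.15 CPM in batch 6. All 3 J-domain genes had their PBS-primed and LPS-primed PB plates apart in both batches. Without the 2 highest cells of each plate Dnajc15 and Dnajc2 were still apart in both, while Dnaja3, at 0.204 and 1.29 against 0 and 0.529 CPM in batch 7, was not.

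Counted over the 54 genes on total UMIs, 6 had every LPS-primed PB plate below every PBS-primed one in both batches (11.1%: Dnaja3, Dnajc15, Dnajc2, Dnajc3, Dnajc8 and Hsp90b1), and so did 20.5% of all 9919 genes. Just 1, Hspa13, was apart in the other direction (1.85%), against 4.60% of all genes. With TMM scaling there were 3 lower (Dnaja3, Dnajc15 and Dnajc2, against 8.67% of all genes) and 6 higher (Dnaja1, Dnajc13, Hspa13, Hspa1a, Hspa5 and Hspa8, 11.1%, against 9.96% of all genes). Without the 2 cells highest for a gene on each plate, an alternative added after the data were seen, 3 were lower (Dnajc15, Dnajc2 and Dnajc8, against 15.1% of all genes) and 1 higher (Dnajc13, against 5.75%). The shares were not tested against those of all genes, and nothing particular to the chaperone genes is read from these counts.

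The inducible HSP90 gene was uneven between cells. Hsp90aa1 had 174 and 225 CPM in PBS-primed and 95.7 and 45.4 CPM in LPS-primed PB samples of batch 7, but 256 and 218 CPM against 355 and 320.4 CPM in batch 6. On total UMIs the groups did not overlap in either batch and their order was opposite, but in batch 6 this rested on 2 cells of each LPS-primed plate, which held 72.0% and 52.4% of the UMIs. Without the 2 highest cells of each plate, batch 6 had 218 and 134 CPM with PBS and 103 and 157 CPM with LPS, which overlap, and batch 7 had 117 and 122 against 36.6 and 24.9 CPM. The overlap depends on the scaling, since the same levels divided by the TMM factors of the plates were 148 and 110 with PBS and 170 and 231 with LPS in batch 6, apart, and 81.5 and 86.0 against 45.1 and 32.9 in batch 7. No test was run without these cells. With all cells, batch 6 alone gave an estimate of 1.62 (SE 0.49, adjusted p = 0.0223 by edgeR), and batch 7 one of -0.60 (SE 0.58, adjusted p = 0.665 by edgeR, 0.0223 to 0.963 over the alternatives). The lower end of that range is the fit of batch 6 alone, whose estimate has the opposite sign. The constitutive Hsp90ab1 overlapped between treatments in both batches, at 137 and 264 against 79.0 and 149.9 CPM in batch 7 and at 353 and 211 against 399 and 221 CPM in batch 6.

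Among ER genes, Hspa5 had 181 and 133 CPM with PBS and 161 and 155 CPM with LPS in PB, with overlap. Hsp90b1, the HSP90 of the ER, had 26.6 and 86.4 CPM with PBS and 7.96 and 19.9 CPM with LPS, and in batch 6 84.1 and 95.1 against 66.8 and 78.6 CPM. Dnajb11, an ER partner of HSPA5, overlapped between treatments in batch 7, at 15.1 and 86.1 against 20.3 and 4.93 CPM, but not in batch 6, at 29.5 and 36.8 with PBS against 16.8 and 18.6 CPM with LPS. Of the class C genes, Dnajc8 had 281 and 314 CPM with PBS and 145 and 29.7 CPM with LPS, and Dnajc5 had 158 and 264 against 77.5 and 38.1 CPM, without overlap in batch 7. Dnajc5 overlapped in batch 6, at 49.6 and 127 against 90.8 and 60.3 CPM. Dnajc13, which acts on endosomes, had 54.7 and 14.5 CPM with PBS and 56.8 and 67.5 CPM with LPS in batch 7, without overlap, and overlapped in batch 6, at 48.5 and 16.9 against 36.4 and 41.9 CPM. Of the class B genes, Dnajb6 (171 and 63.6 against 79.5 and 39.8 CPM) and the heat-inducible Dnajb1 (89.2 and 20.1 against 44.5 and 11.2 CPM) overlapped in batch 7. In batch 6 Dnajb6 overlapped, at 63.1 and 66.2 against 75.5 and 57.6 CPM, and Dnajb1 did not, at 109 and 105 CPM with PBS against 32.9 and 52.3 CPM with LPS.

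**Figure D3:**
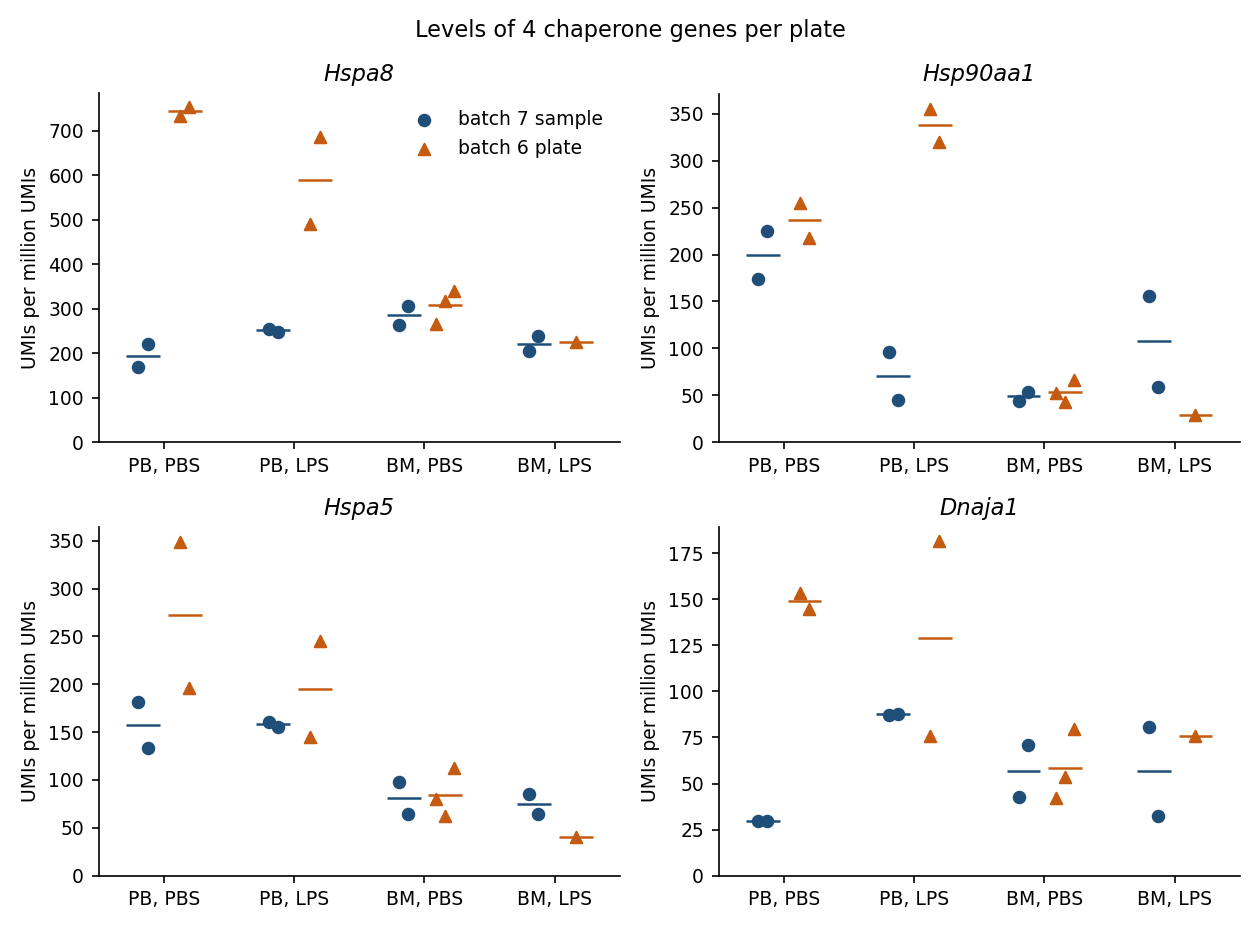
Levels of Hspa8, Hsp90aa1, Hspa5 and Dnaja1 (y axes, CPM) by group, with a circle per batch 7 sample, a triangle per batch 6 plate and a bar for the mean. The 4 PB plates of batch 6 are the highest for Hspa8, at 489.9 to 755, and Hsp90aa1 has opposite orders of PBS and LPS in PB of the 2 batches with all cells, which in batch 6, on total UMIs, rests on the 2 highest cells of each LPS-primed plate.

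In BM neutrophils LPS gave 0 called chaperone genes among the 46 tested by edgeR, against 0.0236% of all genes called higher and 0.0472% lower. At an unadjusted p under 0.05 there were 2, Hspe1 and Dnajc25, as were 8.07% of all genes. DESeq2 called 1 (Hspe1, against 2.25% of all genes), limma-voom 0 (0.118%), edgeR on the plates of both batches 0 (0.418%) and edgeR on batch 6 alone 0 (0.406%). The median log2 fold change was 0.12 over the 46 genes and 0 over all genes tested, with 24 positive and 20 negative estimates. Hspe1 had 0.143 and 0 CPM in PBS-primed and 32.7 and 18 CPM in LPS-primed BM samples, so no fold is given, and 2 cells held 99.2% and 95.3% of its UMIs in the LPS-primed samples. In batch 6 it had 0, 7.04 and 0.350 CPM against 6.36 CPM on the LPS plate, which lies within the PBS-primed range. Dnajc25, an ER gene, had 14.1 and 0 CPM against 0 and 0 CPM. Hspa8 had 264 and 307 CPM with PBS and 205 and 238 CPM with LPS in BM, without overlap, and its estimate was -0.56 (SE 0.32, adjusted p = 0.672 by edgeR). The LPS-primed plate of batch 6, at 226 CPM, was also below the 3 PBS-primed ones, at 267, 317 and 341 CPM.

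Whether LPS acted differently in the 2 tissues was tested as the difference of both log2 fold changes, PB minus BM. No chaperone gene was called by edgeR, against 1.45% of all genes higher and 0.0472% lower. At an unadjusted p under 0.05 there were 5, namely Hspa8, Dnaja1, Dnajc5, Hspe1 and Dnajc25, as were 13.4% of all genes. DESeq2 called 2 (Hspa8 and Hspe1, against 5.74% of all genes), limma-voom 0 (1.0%), edgeR on the plates of both batches 0 (3.35%) and edgeR on batch 6 alone 0 (2.72%). The median was -0.30 over the 46 genes and -0.17 over all genes. For Hspa8 the difference was 1.84 (SE 0.45, adjusted p = 0.0983 by edgeR) and for Dnaja1 2.68 (SE 0.93, adjusted p = 0.263 by edgeR). For Dnajc5 it was -1.55 (SE 0.68, adjusted p = 0.354 by edgeR), which batch 6 alone, with 1 plate of LPS-primed BM, turned to 1.07. In BM, Dnaja1 overlapped between treatments, at 42.9 and 70.8 against 80.8 and 32.3 CPM, and Dnajc5 had 92.1 and 97.3 CPM with PBS and 186 and 138 CPM with LPS.

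Between tissues, PB and BM neutrophils were compared within each treatment. Without LPS, 0 of 46 chaperone genes were called by edgeR, against 1.18% of all genes higher in PB and 1.43% lower. At an unadjusted p under 0.05 there were 5 (Hspa8, Hsp90aa1, Hspe1, Dnaja3 and Hspb8), as were 18.5% of all genes. In batch 7 Dnaja3 and Hspb8 were at 0 in every BM sample and passed the filter on low counts through PB. Their direction was thus set, and nothing is read from them here, nor from the call of Dnaja3 that follows. DESeq2 called 2 (Hspa8, lower in PB, and Hspe1, higher, against 11.1% of all genes), limma-voom 2 (Dnaja3 and Hspe1, against 4.36%), edgeR on the plates of both batches 4 (7.73%) and edgeR on batch 6 alone 4 (5.60%). The former include Hspa1b, which passed the filter on low counts through the PB plates of batch 6, and the latter Hspa1a and Hspa1b, high on those same plates, so nothing is read from these calls of the pair. The median was -0.24 over the 46 genes, against 0.15 over all genes. With library size alone these were 0.28 and 0.67, so the direction of the median depends on the scaling. Hspa8 had 168 and 222 CPM in PB and 264 and 307 CPM in BM of batch 7, an estimate of -1.08 (SE 0.32, adjusted p = 0.132 by edgeR). Batch 6 turned this order, with 734 and 755 CPM in PB and 267 to 341 CPM in BM, and alone gave 0.72 (SE 0.36, adjusted p = 0.301 by edgeR). Hsp90aa1 had 174 and 225 CPM in PB and 44.3 and 53.1 CPM in BM, an estimate of 1.51 (SE 0.59, adjusted p = 0.217 by edgeR). In batch 6 it had 256 and 218 CPM in PB and 52.5, 43.0 and 66.4 CPM in BM, so all PB plates lay above all BM plates. Fitting both batches together gave 1.61 (SE 0.47, adjusted p = 0.0326 by edgeR, 0.0132 to 0.495 over the alternatives). Hspa13, an HSP70 of the ER, was called lower in PB by the fit of both batches (-6.31, SE 1.63, adjusted p = 0.0158 by edgeR) and of batch 6 alone (-7.62, SE 1.94, adjusted p = 0.00586 by edgeR). It had 0.595 and 0.309 CPM in PB and 18.8 and 1.67 CPM in BM of batch 7, and 0 and 0.563 against 86.9, 30.2 and 13.5 CPM in batch 6, and the 2 highest cells held 59.4% to 99.2% of its UMIs on these BM plates.

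Within each batch, 5 of the 10 mitochondrial chaperone genes were higher on every PBS-primed PB plate than on every PBS-primed BM plate. They include Dnaja3, which was at 0 in every BM sample of batch 7. Nothing is read from its part in the counts of this paragraph. On total UMIs, 11 of the 54 genes (20.4%) were apart in this direction in both batches, 5 of them from the 10 mitochondrial genes (Dnaja3, Dnajc15, Hspa9, Hspd1 and Hspe1), besides Dnajb4, Dnajc10, Dnajc2, Hsp90aa1, Hspa1b and Hspa5. Of all 9919 genes 12.7% were. The 11 include Dnajb4 and Hspa1b, with means of 0.353 and 0.253 CPM in PBS-primed PB of batch 7 against 0 in PBS-primed BM. On those PB plates 3 UMIs give 0.595 and 0.926 CPM. Their part in the 11, and in the 8 with TMM scaling below, is therefore not read. Hspa13 was the 1 apart in the other direction (1.85%), against 3.80% of all genes. With TMM scaling the count was 8 (14.8%, against 7.27% of all genes), with all 5 mitochondrial genes among them, and 1 in the other direction (6.47% of all genes). Without the 2 highest cells it was 6 (11.1%, against 9.09% of all genes: Dnaja3, Dnajc15, Hsp90aa1, Hspa5, Hspd1 and Hspe1) and 0 in the other direction (4.45%). The B cell, T or NK cell and platelet markers were also higher in PBS-primed PB than in BM neutrophils (above), as were the immediate early genes, at 9783 to 18959.5 CPM against 574 to 3386 CPM in PBS-primed BM, and in batch 7 the liver genes, at 1464 and 2247 against 6.02 and 1.79 CPM. Their part was not tested. Hspe1 had 26.0 and 35.2 CPM in PB and 0.143 and 0 CPM in BM of batch 7, and 44.8 and 23.4 CPM against 0, 7.04 and 0.350 CPM in batch 6. The fit of both batches called it higher in PB (4.94, SE 1.46, adjusted p = 0.0371 by edgeR, 0.000523 to 0.321 over the alternatives). Hspd1 had 10.1 and 25.9 against 0 and 4.42 CPM, and in batch 6 37.8 and 27.6 against 1.5, 0.297 and 0.817 CPM. Hspa9, the mitochondrial HSP70, had 41.1 and 2.47 CPM against 0 and 0.598 CPM. Dnajc15 had 15.1 and 20.8 CPM in BM of batch 7, below both PB samples (above). Dnajc19, a part of the mitochondrial import motor, overlapped, at 3.37 and 25.9 CPM in PB and 30.5 and 10.2 CPM in BM. Like Dnajc11, Dnajc28, Dnajc30 and Dnajc4, it had a lower mean in PBS-primed PB than in PBS-primed BM of batch 7. In batch 6 only Dnajc30 of these had a lower mean in PB. The mitochondrial genes were not tested as a group.

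After LPS, 0 of 46 genes were called between PB and BM by edgeR, against 3.27% of all genes higher in PB and 0.460% lower. At an unadjusted p under 0.05 there were 4 (Hspa5, Hsp90b1, Hspa8 and Hspb8), as were 17.6% of all genes. Hspb8, at 0 in every BM sample of batch 7, passed the filter on low counts through PB. Its direction was thus set, and nothing is read from it. DESeq2 and limma-voom each called 1, Hspa5 (against 11% and 6.32% of all genes), edgeR on the plates of both batches 3 (5.87%) and edgeR on batch 6 alone 5 (3.38%). Here too the former include Hspa1a and the latter both Hspa1 genes, whose calls are not read. Both fits also called Hspa5 and Hspa8, and that of batch 6 alone Hsp90aa1. LPS-primed BM of batch 6 is 1 plate, so the fit of batch 6 alone takes its spread from other groups. Its calls between LPS-primed tissues are not read. The median was -0.72 over the 46 genes and -0.07 over all genes, with 17 positive and 29 negative estimates, and -1.27 and -0.65 with library size alone. Hspa5 had 161 and 155 CPM in LPS-primed PB and 85.8 and 64.4 CPM in LPS-primed BM samples, an estimate of 1.66 (SE 0.44, adjusted p = 0.0737 by edgeR, 0.00167 to 0.507 over the alternatives). In batch 6 it had 145 and 246 CPM against 40.5 CPM, so the tissues did not overlap in either batch, and the fit of both batches called it at 2.01 (SE 0.40, adjusted p = 0.00167 by edgeR). Immediate early genes were also higher in LPS-primed PB, at 2497 to 4208 CPM against 721 to 1077 CPM in LPS-primed BM. In batch 7 so were the liver genes, at 828 and 863 against 5.80 and 15.9 CPM. The part of these lists was not tested. Hsp90b1 was lower in PB of batch 7, at 7.96 and 19.9 against 74.2 and 75.4 CPM (-1.82, SE 0.80, adjusted p = 0.268 by edgeR), but not in batch 6, at 66.8 and 78.6 against 41.5 CPM. Hspa8 had 255 and 247 CPM in PB and 205 and 238 CPM in BM of batch 7 (0.76, SE 0.32, adjusted p = 0.248 by edgeR) and 489.9 and 687 against 226 CPM in batch 6. The fit of both batches gave 1.2 (SE 0.36, adjusted p = 0.0475 by edgeR) and batch 6 alone, with 1 BM plate, an estimate of 1.93. Hsp90aa1 overlapped in batch 7, at 95.7 and 45.4 against 156 and 58.7 CPM (-0.04, SE 0.57, adjusted p = 0.990 by edgeR). In batch 6 it had 355 and 320.4 against 29.3 CPM on the 1 BM plate, an estimate of 4.09. Most of its PB UMIs there lay in 2 cells of each plate (above).

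The 3 genes with Hspb symbols, classed here by name as small heat shock protein genes, were low, with means of 0.931 to 4.69 CPM over the samples of batch 7. Hspb8, which works with BAG3 in selective autophagy, had 3.57 and 2.78 CPM in PBS-primed and 1.41 and 2.38 CPM in LPS-primed PB samples of batch 7. It was at 0 on all 4 PB plates of batch 6 and at 0 or 0.198 CPM on the BM plates. The liver genes were likewise high on the 4 PB plates of batch 7 and near 0 on those of batch 6 (above), and their part in the Hspb8 values was not tested. Hspb11 and Hspb6 were at 0 to 19.4 CPM and 0 to 25.3 CPM over the 16 plates.

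A comparison of the batches within PB was added after the data were seen. All 16 plates were fitted with edgeR as 8 combinations of group and batch (8845 genes, 51 of them chaperone genes), and the batch difference was averaged over PBS and LPS. In PB 3 genes were called higher in batch 6, Hspa8, Hspa1a and Hspa1b, against 0.294% of all genes, and 0 lower, against 0.407% of all genes. Hspa1a and Hspa1b passed the filter on low counts through the PB plates of batch 6 themselves, so their direction was set and they are only described (below). At an unadjusted p under 0.05 there were 14 chaperone genes, and 14.0% of all genes. The 14 include Hspa1a, Hspa1b and Hspb8. Hspb8 was at 0 on the PB plates of batch 6 and passed the filter through those of batch 7, so its direction was set too. Nothing is read from this count. Hspa8 was 1.77 higher on the log2 scale (SE 0.25, adjusted p = 0.000156 by edgeR, 6.78e-05 to 0.00277 over the alternatives). All 4 PB plates of batch 6 (489.9 to 755 CPM) lay above all 4 of batch 7 (168 to 255 CPM). Hsp90aa1 had an estimate of 1.45 (SE 0.35, adjusted p = 0.0508 by edgeR), Dnaja1 1.61 (SE 0.44, adjusted p = 0.0927 by edgeR), Hsp90ab1 1.14 (SE 0.33, adjusted p = 0.115 by edgeR) and Hsp90b1 1.71 (SE 0.49, adjusted p = 0.115 by edgeR).

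In BM the same contrast called 0 chaperone genes with edgeR (5 at an unadjusted p under 0.05, as were 5.80% of all genes), against 0.0452% of all genes higher and 0% lower. Hspa8 stood at 205 to 307 CPM in BM of batch 7 and at 226 to 341 CPM in batch 6, an estimate of 0.27 (SE 0.26, adjusted p = 0.964 by edgeR). The difference of the batch effects between PB and BM was 1.5 for Hspa8 (SE 0.36, adjusted p = 0.128 by edgeR) and 2.11 for Hsp90aa1 (SE 0.53, adjusted p = 0.185 by edgeR), and no chaperone gene was called in it (6 at an unadjusted p under 0.05, as were 7.47% of all genes), against 0.0452% of all genes higher and 0.0565% lower. A batch effect confined to PB is therefore not shown. Hspa8 was called in every fit without 1 plate. It alone was called without LPS-primed PB plate 2 of batch 6, without either LPS-primed PB sample and without either PBS-primed PB sample of batch 7 (1 gene each), and 2 genes without PBS-primed PB plate 2 of batch 6.

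Hspa8 was higher in many cells of these plates and not in a few. With each cell thinned to 5000 UMIs, 62.5% to 65.5% of cells on the PB plates of batch 6 had an Hspa8 UMI, against 32.2% to 44.0% on those of batch 7 and 32.6% to 54.9% on BM plates. Without thinning the shares in PB were 91.7% to 100% and 74.4% to 79.1%. Leaving out the 2 highest cells of each plate gave 428 to 672 CPM in batch 6 and 129 to 209 CPM in batch 7. The immediate early genes were higher in batch 6 in PBS-primed PB neutrophils but not in LPS-primed ones (2497 and 3318 CPM, against 4208 and 3959.6 CPM in batch 7), and the liver genes were higher in batch 7. Platelet markers were at 2486 and 1074 CPM in PBS-primed PB of batch 6 against 423 and 259.5 CPM in batch 7, and at 1.41 and 49.5 against 108 and 73.4 CPM in LPS-primed PB. Their part in the difference was not tested. What else differed between batch 6 and batch 7 is not stated and cannot be told apart from the batch.

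**Figure D4:**
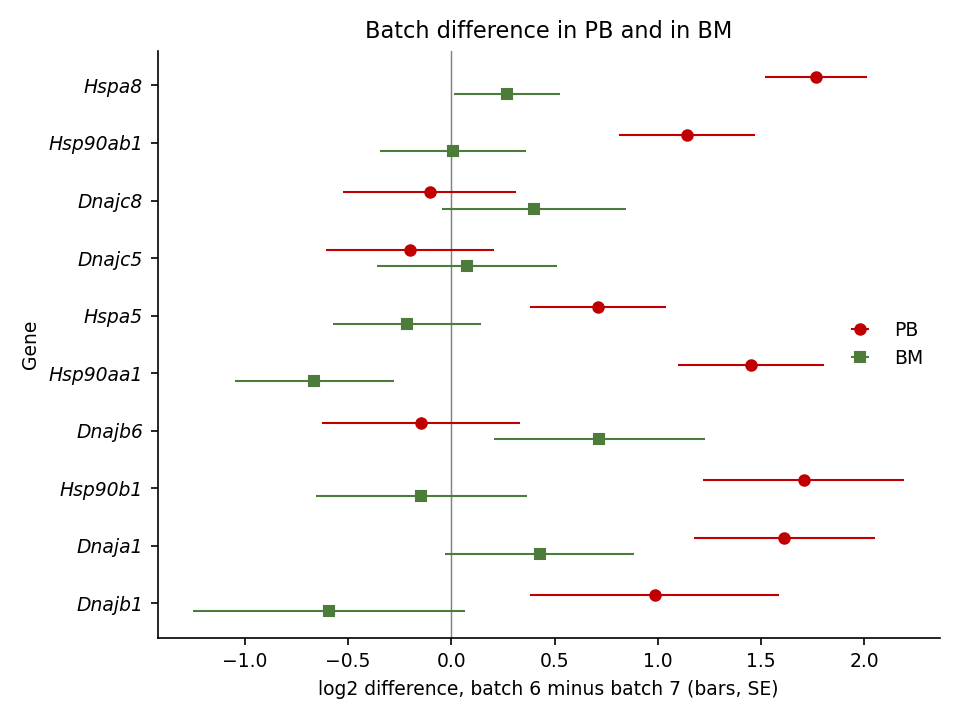
Batch 6 against batch 7 as log2 fold change from edgeR (x axis, with SE) for the 10 chaperone genes of highest level (rows), with circles for PB and squares for BM. Hspa8 is at 1.77 in PB and at 0.27 in BM.

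Hspa1a and Hspa1b, the stress-inducible HSP70 pair, lie side by side on mm9 at chr17:35106144-35109069 and chr17:35093381-35096183, both on the minus strand. Their annotated transcripts share stretches of 150 bases along 38.7% and 40.5% of their length but 0 such stretches in the last 500 bases. Where counting could have split reads between them, their sum is safer, and the sum is given here. In PB of batch 7 it was 0.397 and 0.926 CPM with PBS and 1.41 and 2.55 CPM with LPS. On the PB plates of batch 6 it was 107 and 118 CPM with PBS and 68.0 and 284 CPM with LPS. BM plates reached at most 4.78 CPM.

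Unlike Hspa8, the pair came mostly from single cells. The 2 highest cells of each PB plate of batch 6 held 79.6%, 88.9%, 89.6% and 83.5% of its UMIs. Without them the plates stood at 23.1, 13.5, 7.12 and 49.2 CPM, still above the PB samples of batch 7. On these plates 42 of 88 (47.7%), 26 of 84 (31.0%), 52 of 95 (54.7%) and 82 of 91 cells (90.1%) had at least 1 UMI of the pair, and 83 of the 358 cells had UMIs of both genes. On the PB plates of batch 7 it was 2 of 90, 3 of 86, 8 of 91 and 8 of 86 cells (2.22% to 9.30%), and 0 of 353 had UMIs of both, which allows a share of cells with UMIs of both of up to 0.850% and sets no limit on cells that express them. In BM of batch 6, 29 of 89 cells of PBS-primed plate 3 had a UMI of the pair, and 5 of 84, 3 of 91 and 6 of 88 on the other plates, while plates of batch 7 had 0 to 2 such cells. After thinning to 5000 UMIs, 13 of 88, 8 of 84, 7 of 95 and 19 of 91 cells on the PB plates of batch 6 still had one, against 0 or 1 cell on every other plate. The limit covers counting error only, and UMIs that leaked from the highest cells to others of the plate cannot be told apart from low expression.

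The highest cells differed in what else they carried. On LPS-primed PB plate 2 of batch 6, the highest cell had 1349 UMIs of the pair among 326729, with 531 of Hspa8 and 504 of Hsp90aa1. The next had 855 among 121227, with 1031 UMIs of Hsp90aa1 and 160 of Hsph1, the HSP110 exchange factor. Both carried the neutrophil markers, at 327354 and 374974 CPM. On PBS-primed PB plate 1 the highest cell had 327 UMIs of Hspa1b and 0 of Hspa1a, and on plate 2 one had 271 of Hspa1a and 0 of Hspa1b. The cell of plate 1 also carried B cell markers at 4031 CPM and platelet markers at 3572 CPM, the highest of the 8 cells. The cell of plate 2 had neutrophil markers at 4940 CPM, against 71773 to 423705 CPM in the other 7 cells. Its monocyte or macrophage markers were at 904 CPM, within the 57.6 to 1609 CPM of the other 7, its T or NK cell markers at 20.5 CPM, the highest of the 8, and its B cell and liver markers at 0. Hsph1 itself reached 32.3 CPM on LPS-primed PB plate 2 of batch 6 and at most 2.58 CPM on every other plate. Dnajb4, another heat-inducible J-domain gene, reached 46.1 CPM on PBS-primed PB plate 1 of batch 6 and at most 0.549 CPM elsewhere.

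**Figure D5:**
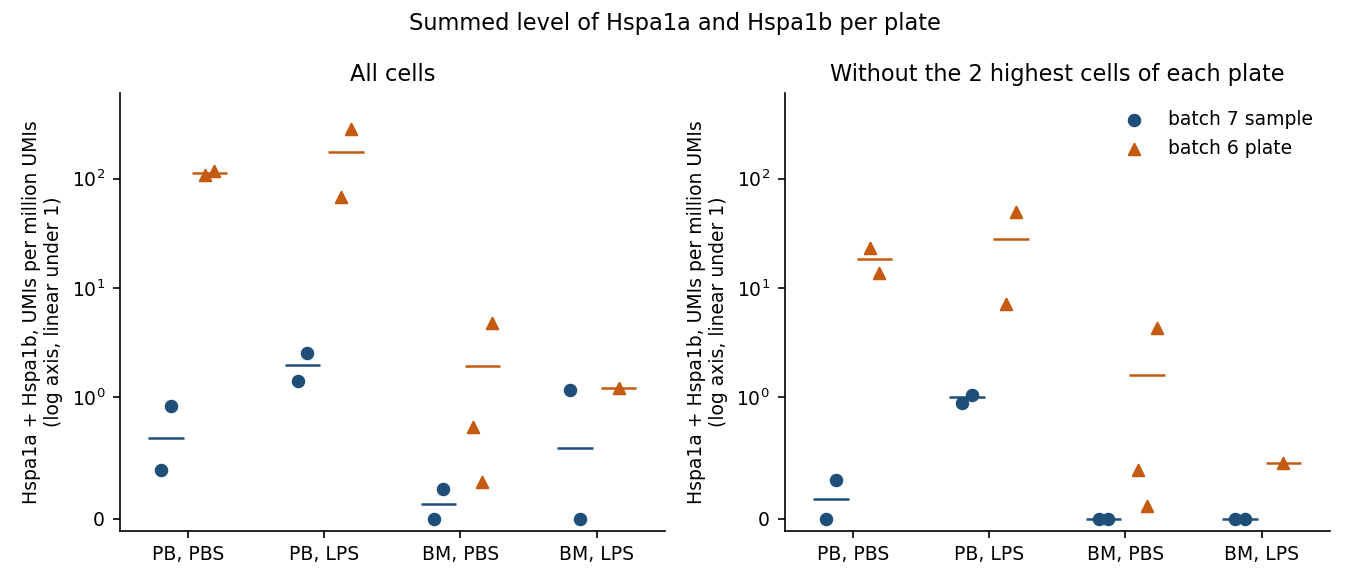
Summed level of Hspa1a and Hspa1b per plate (y axes, CPM, log scale that is linear under 1) with all cells on the left and without the 2 highest cells of each plate on the right, by group and batch. The PB plates of batch 6 stand at 68.0 to 284 on the left and at 7.12 to 49.2 on the right, above all other plates.

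Of 67 other genes of protein folding and its control (heat shock factors, co-chaperones, the ER stress response, the CCT chaperonin and ubiquitin), 55 were tested. In LPS-primed against PBS-primed PB neutrophils, edgeR called 1 higher and 1 lower, against 3.47% and 0.472% of all genes. Xbp1, the transcription factor of the ER stress response, rose from 240.2 and 174 CPM to 401 and 530.5 CPM (log2 fold change 2.09, SE 0.39, adjusted p = 0.0128). Cct7, a subunit of the chaperonin, fell from 51.0 and 109.9 CPM to 2.50 and 1.02 CPM (log2 fold change -4.60, SE 1.12, adjusted p = 0.0475), but overlapped on the plates of batch 6, at 83.4 and 19.5 CPM with PBS and 32.4 and 33.5 CPM with LPS. Between LPS-primed PB and BM neutrophils 0 were called lower in PB, against 0.460% of all genes, and 3 higher, against 3.27%, among them Xbp1 (log2 fold change 2.07, adjusted p = 0.0128) and Ubb, a polyubiquitin gene (0.95, adjusted p = 0.0171). Xbp1 in BM was at 196 and 138 CPM after LPS, and the plates of batch 6 had the same order in PB, at 233 and 221 CPM with PBS and 331 and 417 CPM with LPS. On total UMIs Ubb had 1557 and 1559 CPM in LPS-primed PB and 1309 and 1114 CPM in LPS-primed BM of batch 7. In batch 6 it overlapped, at 1101 and 1803 CPM in LPS-primed PB against 1478 CPM on the 1 LPS-primed BM plate. In the other 3 comparisons 0 were called by edgeR, with 1 at an unadjusted p under 0.05 for LPS in BM, as were 8.07% of all genes, 6 for the difference of LPS effects (13.4% of all genes) and 2 between tissues without LPS (18.5% of all genes).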

How the data were processed

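The deposited table holds UMI counts, which the authors made by trimming with Cutadapt 1.15, alignment to mm9 with STAR 2.6.0a, removal of duplicate UMIs among uniquely mapped reads and counting with HTSeq 0.11.2, followed by filters on cells and genes. The gene annotation is not given in the sources used here. The authors' annotation of cells gives batch, plate and the ERCC ratio, a fraction whose denominator is not stated, which served only as a check. Its median per plate was 0.398 to 0.618 in PB of batch 6 and 0.498 to 0.664 in PB of batch 7. The table has 10970 rows, 0 of them without a gene name, and 0 per-sample columns were left unused. No doublet caller was run, since cells were picked singly.

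Counts were summed per sample. Cells of batch 7 name their sample, those of batch 6 only group and plate, and these were reported per plate. edgeR 4.0.16 (R 4.3.3; filterByExpr, TMM, glmQLFit and glmQLFTest, 1 model of 4 groups, 8 samples) was the main test, with two-sided p-values, adjusted by Benjamini and Hochberg over all genes tested. The common dispersion was 1.06. DESeq2 1.42.0, limma-voom 3.58.1, library size alone, other filters, thinning to 5000 UMIs per cell, a replicate block, leaving out each sample, and the plates of batch 6 or of both batches were alternatives. The test was tried on simulated data. Gene positions are those of the GENCODE annotation on mm9. Named genes were the 3 highest of each role, the heat-inducible genes and any gene called, and others were named after their values were seen. The genes and lists were chosen with earlier results of these data known. One gene of the list of other folding genes is not reported here.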

Additional observations from a re-analysis of the deposited data

How the results depend on the processing

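In the 8 samples of batch 7, the count of chaperone genes called was 0 in all 5 comparisons under other scaling and filters, with thinned cells, without each sample in turn (0 to 0) and with the replicate block (0), where same-numbered samples did not deviate together. Leaving out a sample leaves 1 group with a single sample, assumed to vary like the others. The 1 LPS-primed BM plate is treated likewise in fits of batch 6 alone. DESeq2 called 3 for LPS in PB, 1 for LPS in BM, 2 for their difference, 2 between tissues without LPS and 1 with LPS. limma-voom called 2 and 1 in the last pair, the 2 with Dnaja3, whose direction the filter set. The plates of both batches with batch as a term gave 1 for LPS in PB, 4 between tissues without LPS and 3 with LPS, and batch 6 alone 1, 4 and 5, with Hspa1a or Hspa1b, high on the PB plates of batch 6, in each count between tissues. Batch 6 alone also reversed the estimates of Hspa8 between tissues without LPS (0.72), Hsp90b1 between tissues with LPS (1.36), and Dnajc5 (1.07) and Dnajc25 (-0.28) for the difference of LPS effects; the cause was not tested. For batch 6 against 7 in PB, fits without 1 plate called 1 to 4 genes. The share of UMIs in LPS-primed BM moved from 0.170% to 0.156% with thinned cells and to 0.159% as a mean over cells. On TMM-scaled library sizes, added after the data were seen, it was 0.157%, and the shares in PB moved to 0.154% with PBS and 0.163% with LPS, which turns their order. With 2 samples per group, the SE of the log2 fold change with LPS in PB ran from 0.32 for Hspa8 to 4.31 for Hspb11.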
